A study of Homo sapiens with 18 samples.

Results

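The genes described here carry glucose into the cell, split it to pyruvate and lactate, or route it through the pentose phosphate pathway. They are 33 genes taken by symbol from a list, and all 33 were found in each of the 3 deposited gene tables, which list 15543, 31585 and 32555 genes. Gene expression was measured by poly(A) RNA sequencing in 18 libraries of human cell lines, in 6 groups of 3 libraries. SW480-LM3 is a line obtained from the colorectal carcinoma line SW480 through 3 rounds of selection by injection into the spleen, and SW480-P is its parent. EV-XP-NID1-LX-2 is LX-2, a hepatic stellate cell line, kept for 48 hours with extracellular vesicles that contained nidogen 1 (NID1), a basement membrane glycoprotein, and EV-XP-LX-2 is LX-2 given control vesicles. LV5-NID1 is SW480 made to overexpress NID1 and held for 72 hours in GW4869, a compound that blocks neutral sphingomyelinase and thereby vesicle release. LV5 is its control, and the labels do not say whether it also received GW4869, so NID1 and GW4869 cannot be told apart there. The labels do not explain XP or LV5, do not say whether LV5-NID1 is a clone or a pool, and do not state that replicates were separate cultures, so p-values measure the spread between libraries, which may be technical.

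Glucose enters through facilitative carriers and is trapped by hexokinase as glucose phosphate, which either runs down glycolysis or enters the pentose phosphate pathway for NADPH and ribose. Phosphofructokinase is the main controlled step of glycolysis, and its activator fructose 2,6-bisphosphate is made and removed by the PFKFB enzymes. Tumour cells often convert much of their pyruvate to lactate even with oxygen present, and many genes of this route are targets of the hypoxia-inducible factors (HIF), which bind the core letters ACGTG and GCGTG in DNA.

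The promoters shown are those of ALDOC, PFKL, SLC16A3, LDHA, H6PD and PGK1, the 6 called members with the largest log2 fold changes in the EV-XP-NID1-LX-2 comparison, all lower there, and that of TXNIP, which was higher in the first-named group of every comparison. Each line gives the 250 bases before the most upstream listed start, from RefSeq on build GRCh38.p14, on the gene's own strand, with ACGTG and GCGTG on either strand in capitals. ALDOC lies at chr17:28576896-28577145 on the minus strand, PFKL at chr21:44299803-44300052 and SLC16A3 at chr17:82228185-82228434 on the plus strand, LDHA at chr11:18394313-18394562 on the plus strand, PGK1 at chrX:78103998-78104247 on the plus strand, TXNIP at chr1:145996580-145996829 on the minus strand and H6PD at chr1:9239597-9239846 on the plus strand.
ALDOC: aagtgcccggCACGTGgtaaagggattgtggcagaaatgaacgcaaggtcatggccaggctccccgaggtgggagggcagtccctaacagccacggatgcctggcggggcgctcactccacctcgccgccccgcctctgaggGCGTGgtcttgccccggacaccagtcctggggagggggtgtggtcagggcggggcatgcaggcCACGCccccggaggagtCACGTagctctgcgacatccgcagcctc
PFKL: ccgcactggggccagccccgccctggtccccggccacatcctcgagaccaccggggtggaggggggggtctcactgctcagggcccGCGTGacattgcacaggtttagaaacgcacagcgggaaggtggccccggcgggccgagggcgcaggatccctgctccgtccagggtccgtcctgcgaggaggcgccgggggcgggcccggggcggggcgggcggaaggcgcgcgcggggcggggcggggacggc
SLC16A3: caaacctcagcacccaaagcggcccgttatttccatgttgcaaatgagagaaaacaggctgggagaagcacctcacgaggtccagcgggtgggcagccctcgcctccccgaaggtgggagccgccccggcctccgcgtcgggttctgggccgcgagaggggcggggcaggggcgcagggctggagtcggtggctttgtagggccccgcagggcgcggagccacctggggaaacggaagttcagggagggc
LDHA: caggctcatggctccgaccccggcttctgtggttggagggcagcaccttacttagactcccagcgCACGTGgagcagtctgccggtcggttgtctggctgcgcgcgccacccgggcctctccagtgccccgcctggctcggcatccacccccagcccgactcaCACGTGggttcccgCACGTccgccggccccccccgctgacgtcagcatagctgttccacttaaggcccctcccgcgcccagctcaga
PGK1: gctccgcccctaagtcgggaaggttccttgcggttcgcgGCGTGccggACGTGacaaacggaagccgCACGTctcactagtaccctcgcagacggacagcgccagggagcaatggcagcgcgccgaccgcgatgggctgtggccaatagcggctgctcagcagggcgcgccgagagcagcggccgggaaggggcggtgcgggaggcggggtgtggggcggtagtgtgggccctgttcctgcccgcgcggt
TXNIP: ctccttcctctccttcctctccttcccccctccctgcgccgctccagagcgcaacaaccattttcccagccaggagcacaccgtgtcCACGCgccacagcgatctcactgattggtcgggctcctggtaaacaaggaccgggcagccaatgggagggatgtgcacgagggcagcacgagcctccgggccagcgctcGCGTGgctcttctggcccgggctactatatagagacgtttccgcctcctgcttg
H6PD: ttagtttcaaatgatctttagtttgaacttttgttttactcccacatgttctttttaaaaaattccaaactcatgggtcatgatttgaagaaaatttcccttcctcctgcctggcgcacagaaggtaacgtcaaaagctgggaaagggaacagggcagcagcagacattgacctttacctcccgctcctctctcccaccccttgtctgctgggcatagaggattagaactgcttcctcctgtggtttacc
The ALDOC and LDHA windows held 5 matches each, the PGK1 window 3, the TXNIP window 2, the PFKL window 1 and the SLC16A3 and H6PD windows 0, where a palindromic CACGTG is counted on both strands. Of the 33 genes, 30 had a promoter in the table, and 16 of these 30 (53.3%) held ACGTG or GCGTG, against 43.1% of 27305 promoters of the same length. ACGTG alone was in 36.7% of the members' promoters and in 18.6% of all promoters, whereas GCGTG alone was in 33.3% and 31.9%, nearly the same share. A match is a description of the letters in this window and not a sign of binding. In another annotation H6PD starts at chr1:9234775, PGK1 at chrX:77910739 and ALDOC at chr17:28577264, so these windows lie inside their genes. Their counts, with the 0 of H6PD among them, describe the printed bases. They need not hold for the bases before a start further upstream.

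Values of SW480-LM3 and SW480-P are a scaled read signal that is not divided by gene length, resting on 15531517 to 16586016 recovered reads per SW480-LM3 library and 15504205 to 18965163 per SW480-P library. Values of the other 4 groups are TPM, a transcript abundance scaled for length and depth, with unknown depth. NID1 averaged 46.9 ± 2.21 signal in SW480-LM3 and 0.501 ± 0.129 in SW480-P, 20.8 ± 2.44 TPM in EV-XP-NID1-LX-2 and 25.4 ± 0.5 TPM in EV-XP-LX-2, and 360 ± 16.6 TPM in LV5-NID1 and 0.02 ± 0.02 TPM in LV5 (SD, n = 3 each). Across 14744 shared genes the mean levels of SW480-LM3 had a rank correlation of 0.793 with SW480-P, 0.713 with EV-XP-LX-2 and 0.694 with LV5, while SW480-P reached 0.886 with LV5, so SW480-LM3 stood apart from the other libraries labelled SW480. Of 10 colon epithelium markers 9 were listed in the SW480-LM3 table, and their summed signal was 13190 to 13910 in SW480-LM3 and 3522 to 3790 in SW480-P. In the table of LX-2, 11 of 12 stellate cell or fibroblast markers were listed, and their sum was 508.5 to 602.8 TPM in EV-XP-NID1-LX-2 and 810.0 to 842.5 TPM in EV-XP-LX-2. DES, a defining stellate cell marker, was not listed there, and LRAT, the stellate cell retinol esterase, was listed at 0 in 5 of the 6 libraries. Colon epithelium markers summed to 927.2 to 988.1 TPM in LV5-NID1 and 1633 to 1673 TPM in LV5, with CDX2 at or under 0.23 TPM in all 6 libraries. Of these markers 4 were tested, and 3 were called lower and 1 higher, against 9.32% and 7.27% of all genes. In 1 LV5-NID1 library, replicate 3, 696 genes were at least 2-fold below both other replicates, against 4 to 53 genes in the other 17 libraries. The part of these differences in the results that follow was not tested, and in bulk RNA fewer cells of a kind and less RNA per cell cannot be told apart.

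SW480-LM3 was compared with its parent to see what distinguishes the liver-metastatic line. Both carriers, both hexokinases, the phosphofructokinase genes PFKL and PFKP, the ENO2 and PKM enzymes, the lactate exporter SLC16A3 and the kinase PDK1 were all higher in SW480-LM3, while LDHB, SLC16A1, TIGAR and PFKFB2 were lower. Of the 33 genes, 23 rose and 10 fell (limma on log2 of the signal plus 1, Benjamini-Hochberg adjusted p under 0.05). Among all 14527 genes tested 87.8% were called in this comparison, 43.9% higher and 43.9% lower, so a call alone says little here. Of the members 17 rose and 3 fell by a log2 fold change of at least 1, against 23.9% and 21.4% of all genes, and the members' median log2 fold change was 1.04, against -0.004 for all genes. The groups did not overlap for any of the 33 members, as for 87.6% of all genes. The members held 2.99% to 3.13% of the total signal in SW480-LM3 and 2.28% to 2.36% in SW480-P. The totals themselves differed, at 899507 to 908688 in SW480-LM3 and 1102964 to 1104681 in SW480-P. On the signal used in the fits the members summed to 27000 to 28450 in SW480-LM3 and 25190 to 26000 in SW480-P, a smaller difference than that of the percentages.

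**Figure D1:**
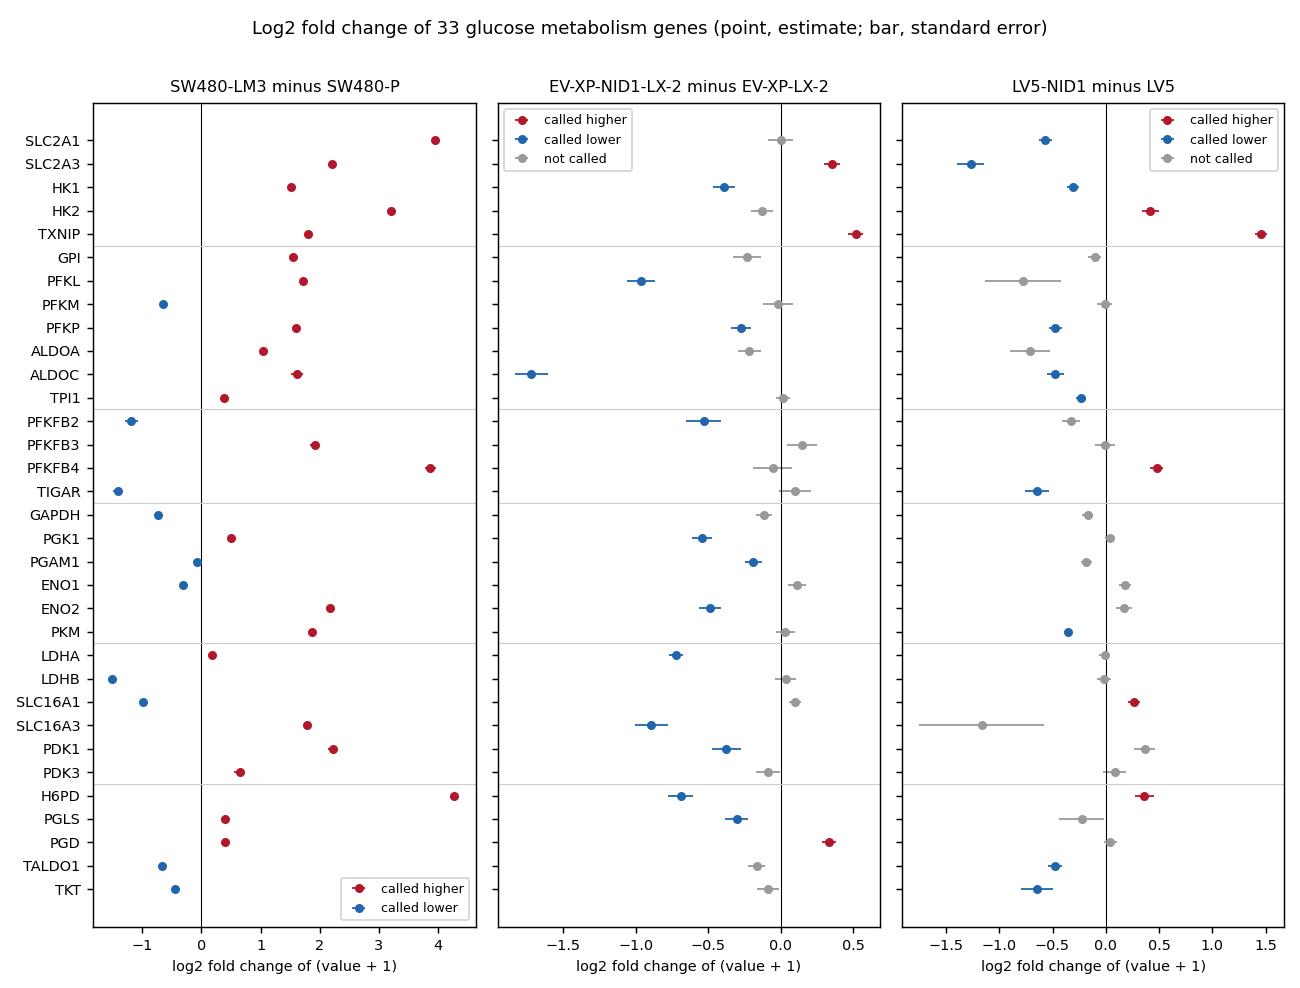
Log2 fold change of (value + 1) on the horizontal axis for each of the 33 genes, 1 panel per comparison, with the standard error as a bar and genes grouped by role. Red points were called higher and blue points lower in the first-named group, and grey points were not called; the horizontal scale is wider for SW480-LM3 minus SW480-P, where H6PD reached 4.27, than in the other panels.

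All 5 genes of uptake and trapping rose in SW480-LM3. SLC2A1, the basal glucose carrier GLUT1, had 1502, 1617 and 1628 signal in SW480-LM3, against 104, 108 and 93.5 in SW480-P. The groups lay far apart, with a log2 fold change of 3.94 (SE 0.049, adjusted p = 3.82e-17). SLC2A3, the high-affinity carrier GLUT3, had 691, 731 and 726 signal in SW480-LM3, against 151, 153 and 161 in SW480-P, so the lowest SW480-LM3 library was well above the highest SW480-P library; its log2 fold change was 2.20 (SE 0.036, adjusted p = 4.4e-16). Reads of SLC2A3 can be shared with SLC2A14, a near-identical copy. HK2, the hexokinase induced in many tumours, stood at 203, 217 and 213 signal in SW480-LM3 and at 20.8, 22.6 and 23.1 in SW480-P. The gap was wider than any spread within a group, with a log2 fold change of 3.20 (SE 0.054, adjusted p = 4.91e-16). HK1, the housekeeping hexokinase, gave 177, 196 and 190.0 signal in SW480-LM3 and 69.8, 65.3 and 59.6 in SW480-P, again without overlap, and its log2 fold change of 1.52 (SE 0.058, adjusted p = 2.67e-12) was smaller than that of HK2. TXNIP encodes an arrestin-like protein that promotes removal of glucose carriers from the cell surface. It had 204, 205 and 208 signal in SW480-LM3, against 58.9, 60.6 and 55.1 in SW480-P, and rose by a log2 fold change of 1.81 (SE 0.045, adjusted p = 2.38e-14), so this inhibitor of uptake rose beside the carriers.

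In upper glycolysis 6 of 7 members rose. GPI, which interconverts glucose phosphate and fructose phosphate, had 725, 818 and 781 signal in SW480-LM3 and 269, 258 and 263 in SW480-P, a log2 fold change of 1.55 (SE 0.041, adjusted p = 4.21e-14). Each of the 3 phosphofructokinase genes encodes one subunit type, and they moved in both directions. PFKL, the liver-type subunit, had 162, 176 and 165 signal in SW480-LM3, against 52.2, 51.4 and 46.7 in SW480-P, and rose by a log2 fold change of 1.72 (SE 0.053, adjusted p = 2.52e-13). PFKP, the platelet-type subunit, had 281, 293 and 284 signal in SW480-LM3, against 102, 90.2 and 88.4 in SW480-P, and rose by a log2 fold change of 1.60 (SE 0.051, adjusted p = 3.2e-13). PFKM, the muscle-type subunit, averaged 70.1 ± 3.03 signal in SW480-LM3 and 111 ± 3.67 in SW480-P (SD, n = 3) and fell, with a log2 fold change of -0.65 (SE 0.048, adjusted p = 7.08e-09). ALDOA, the main aldolase, had 1359.5, 1525 and 1462 signal in SW480-LM3, against 741, 699.8 and 671 in SW480-P, a log2 fold change of 1.04 (SE 0.043, adjusted p = 7.1e-12). ALDOC, the brain-type aldolase, was low, at 26.3, 28.7 and 30.7 signal in SW480-LM3 and 9.61, 8.56 and 7.90 in SW480-P. Those SW480-P values rested on 112 to 147 reads per library, and ALDOC rose by a log2 fold change of 1.61 (SE 0.099, adjusted p = 7.48e-10). TPI1, triose phosphate isomerase, rose less, with a log2 fold change of 0.38 (SE 0.031, adjusted p = 2.18e-08).

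**Figure D2:**
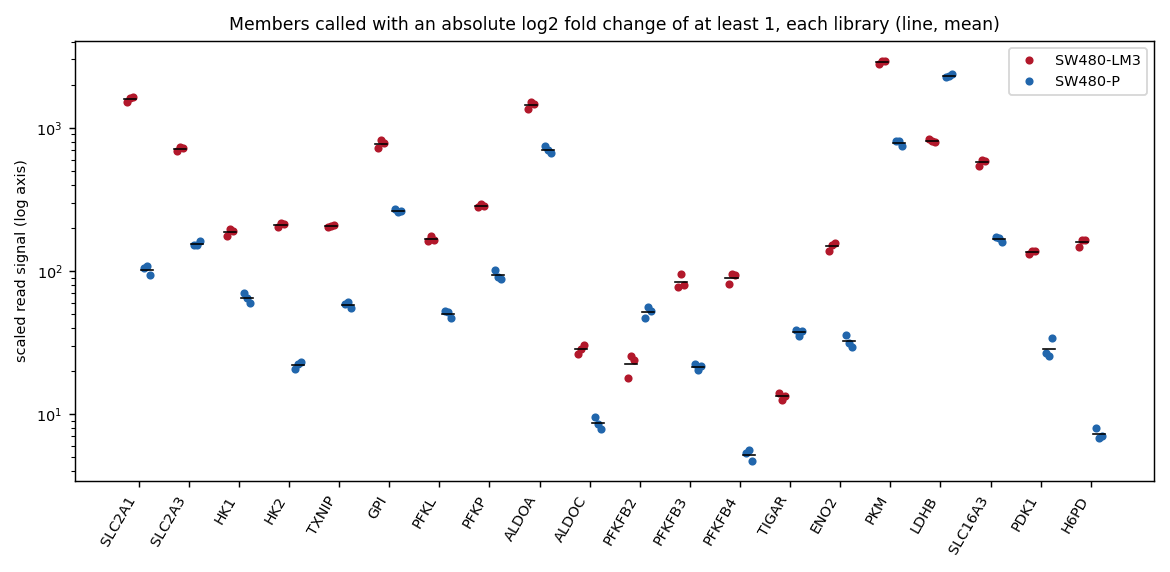
Scaled read signal on a log axis in each SW480-LM3 library (red) and each SW480-P library (blue) for the 20 called members whose log2 fold change was 1 or more in size; a line marks the mean of 3 libraries. The groups do not overlap for any of these genes, and PFKFB2, TIGAR and LDHB are the ones with the red points below the blue.

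The enzymes that set the level of fructose 2,6-bisphosphate split 2 against 2. PFKFB4, a bifunctional kinase and phosphatase, had 81.4, 95.7 and 93.2 signal in SW480-LM3, against 5.34, 5.65 and 4.72 in SW480-P. The SW480-P values rested on 67 to 97 reads per library, and PFKFB4 rose by a log2 fold change of 3.87 (SE 0.089, adjusted p = 1.03e-14). PFKFB3, the form with the highest kinase activity, had 77.5, 94.6 and 79.7 signal in SW480-LM3, against 22.4, 20.3 and 21.7 in SW480-P, and rose by a log2 fold change of 1.91 (SE 0.076, adjusted p = 4.39e-12). PFKFB2, the heart-type form, had 17.9, 25.3 and 24.0 signal in SW480-LM3, against 46.8, 56.2 and 52.7 in SW480-P. All 3 SW480-LM3 libraries were lower, with a log2 fold change of -1.19 (SE 0.11, adjusted p = 8.23e-08). TIGAR, a phosphatase that removes the activator, had 14.2, 12.5 and 13.4 signal in SW480-LM3, against 38.7, 35.1 and 38.1 in SW480-P, and fell, with a log2 fold change of -1.41 (SE 0.080, adjusted p = 2.92e-10).

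Lower glycolysis was divided, with 3 of 6 members higher and 3 lower. ENO2, the neuronal-type enolase, had 137, 152 and 156 signal in SW480-LM3, against 36.0, 31.6 and 29.3 in SW480-P, and rose by a log2 fold change of 2.17 (SE 0.071, adjusted p = 5.12e-13). PKM, which encodes pyruvate kinase, had 2784, 2936 and 2902 signal in SW480-LM3, against 807, 803 and 748 in SW480-P, and rose by a log2 fold change of 1.87 (SE 0.034, adjusted p = 1.01e-15). The other 4 members moved less or the other way. PGK1, phosphoglycerate kinase, rose by a log2 fold change of 0.51 (SE 0.033, adjusted p = 1.61e-09), and GAPDH, glyceraldehyde phosphate dehydrogenase, had a log2 fold change of -0.73 (SE 0.032, adjusted p = 1.21e-11). ENO1, the main enolase, had a log2 fold change of -0.32 (SE 0.029, adjusted p = 8.65e-08), and PGAM1, phosphoglycerate mutase, one of -0.07 (SE 0.028, adjusted p = 0.0237). Both directions depended on scaling: quantile normalization gave 0.40 for ENO1 and 0.68 for PGAM1, and library-total scaling, which moved the median of all genes to 0.27, gave -0.03 for ENO1 and 0.22 for PGAM1. PGAM1 also lost its call without SW480-LM3 replicate 1 or 3 or SW480-P replicate 1 or 2, with a largest adjusted p = 0.188 over all limma alternatives. GAPDH has 62 named pseudogenes in GENCODE 29 and PGAM1 has 13, so the counting of reads from these genes is uncertain.

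At the fate of pyruvate, 4 of 6 members rose. LDHB, the lactate dehydrogenase subunit that favours lactate oxidation, had 841, 805 and 792 signal in SW480-LM3, against 2243, 2291 and 2375 in SW480-P. It fell in every SW480-LM3 library, with a log2 fold change of -1.50 (SE 0.032, adjusted p = 4.33e-15). SLC16A3, the lactate exporter MCT4, had 542, 596 and 588 signal in SW480-LM3, against 172, 169 and 161 in SW480-P, and rose by a log2 fold change of 1.78 (SE 0.041, adjusted p = 1.22e-14). PDK1, a kinase that switches off pyruvate dehydrogenase, had 132, 138 and 138 signal in SW480-LM3, against 26.8, 25.4 and 33.9 in SW480-P, without overlap, and rose by a log2 fold change of 2.22 (SE 0.082, adjusted p = 2.12e-12). LDHA, the subunit that favours lactate formation, rose by a log2 fold change of 0.17 (SE 0.027, adjusted p = 2.28e-05), and PDK3, a related kinase, by one of 0.65 (SE 0.092, adjusted p = 1.07e-05). SLC16A1, the carrier MCT1, fell, with a log2 fold change of -0.99 (SE 0.046, adjusted p = 3.13e-11).

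In the pentose phosphate pathway 3 of 5 members rose and 2 fell. H6PD, the endoplasmic reticulum enzyme that carries out the first steps of the pathway there, had 148, 164 and 164 signal in SW480-LM3, against 8.04, 6.82 and 7.05 in SW480-P. The SW480-P values rested on 100 to 117 reads per library and the SW480-LM3 values on 2544 to 3030, and the log2 fold change of 4.27 (SE 0.074, adjusted p = 6.19e-16) was the largest of the 33. PGLS, the lactonase, and PGD, which makes NADPH in the oxidative branch, rose by log2 fold changes of 0.41 and 0.39. TALDO1 and TKT, the transaldolase and transketolase of the non-oxidative branch, had log2 fold changes of -0.67 and -0.44 and fell. Removal of the trend with transcript GC content, an alternative added after the data were seen, turned PGLS to -0.23 and TPI1 to -0.09 and lowered PFKL to 1.05. Count tests of the recovered reads with edgeR and DESeq2 called all 33 members in the same directions.

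EV-XP-NID1-LX-2 was compared with EV-XP-LX-2 to see how NID1-bearing vesicles affect stellate cells. The changes were smaller and mostly downward: ALDOC, PFKL, SLC16A3, LDHA, H6PD and PGK1 fell, and the members that rose were SLC2A3, TXNIP and PGD. Of the 33 genes 3 rose and 13 fell by the same limma test, and 17 were not called. Among all 15802 genes tested 42.3% were called, 17.8% higher and 24.6% lower. Past a log2 fold change of 1 the only called member was ALDOC, which fell, against 0.557% of all genes higher and 1.22% lower past that size. The members' median log2 fold change was -0.13, against -0.05 for all genes. Of the members 21 had groups that did not overlap, against 55.9% of all genes. The members held 1.22% to 1.30% of total TPM in EV-XP-NID1-LX-2 and 1.31% to 1.40% in EV-XP-LX-2. Mitochondrially encoded genes held 3.54% to 3.80% of TPM in EV-XP-NID1-LX-2 and 5.98% to 6.20% in EV-XP-LX-2, and with them left out of the scaling all 16 called members kept their call and direction.

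Among the uptake genes, SLC2A3 averaged 78.2 ± 4.09 TPM in EV-XP-NID1-LX-2 and 60.8 ± 2.40 TPM in EV-XP-LX-2 (SD, n = 3) and rose by a log2 fold change of 0.36 (SE 0.057, adjusted p = 0.00276). TXNIP averaged 265 ± 8.43 TPM in EV-XP-NID1-LX-2 and 185 ± 8.19 TPM in EV-XP-LX-2 and rose by a log2 fold change of 0.52 (SE 0.049, adjusted p = 0.000489). HK1 fell, with a log2 fold change of -0.39 (SE 0.075, adjusted p = 0.00579). SLC2A1 and HK2 were not called, with log2 fold changes of 0.00 ± 0.087 and -0.13 ± 0.075 (SE).

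In upper glycolysis 3 of 7 members fell and 4 were not called. ALDOC had 7.58, 6.51 and 6.56 TPM in EV-XP-NID1-LX-2, against 23.4, 22.5 and 29.3 TPM in EV-XP-LX-2. All EV-XP-NID1-LX-2 libraries were far below all EV-XP-LX-2 libraries, and the log2 fold change was -1.72 (SE 0.11, adjusted p = 0.000202). PFKL had 41.3, 33.7 and 43.2 TPM in EV-XP-NID1-LX-2, against 79.3, 72.6 and 80.8 TPM in EV-XP-LX-2, without overlap, and its log2 fold change was -0.97 (SE 0.097, adjusted p = 0.000569). PFKP fell by less, with a log2 fold change of -0.28 (SE 0.069, adjusted p = 0.0166). GPI, PFKM, ALDOA and TPI1 were not called, with log2 fold changes between -0.23 for GPI and 0.02 for TPI1. Among the fructose bisphosphate regulators, PFKFB2, at 1.64 to 2.02 TPM in EV-XP-NID1-LX-2 and 2.61 to 3.31 TPM in EV-XP-LX-2, had a log2 fold change of -0.53 (SE 0.12, adjusted p = 0.0122), and PFKFB3, PFKFB4 and TIGAR were not called.

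**Figure D3:**
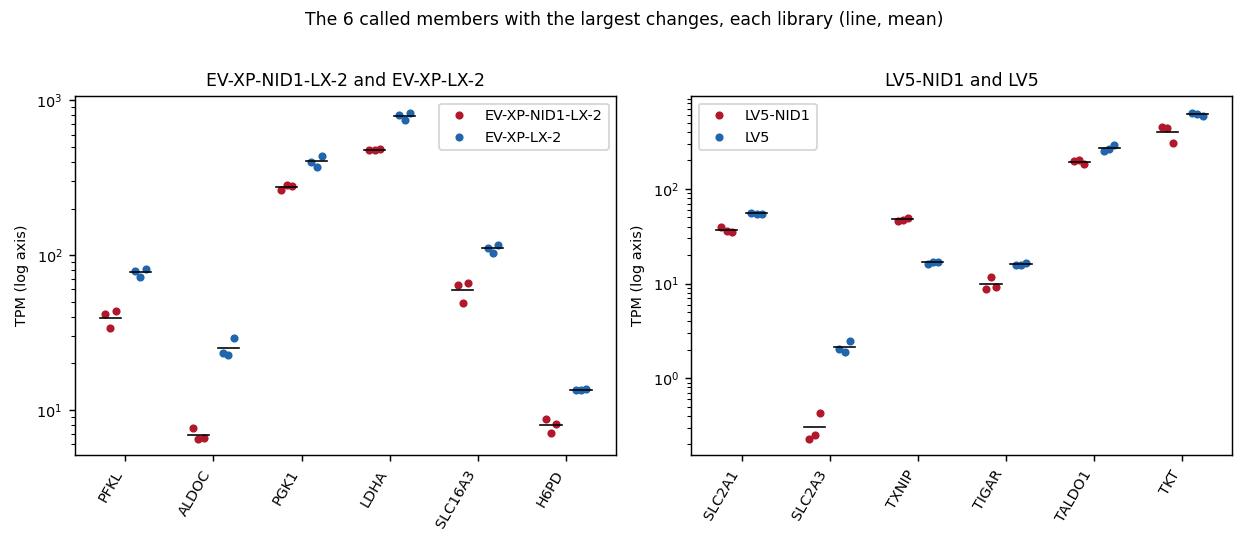
TPM on a log axis in each library for the 6 called members with the largest absolute log2 fold change, EV-XP-NID1-LX-2 (red) and EV-XP-LX-2 (blue) on the left, LV5-NID1 (red) and LV5 (blue) on the right; a line marks the mean. All 6 genes on the left are lower in EV-XP-NID1-LX-2, and TXNIP is the one gene on the right that is higher in LV5-NID1.

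In lower glycolysis PGK1, PGAM1 and ENO2 fell. PGK1 had 265, 282 and 281 TPM in EV-XP-NID1-LX-2, against 401, 370.1 and 439.6 TPM in EV-XP-LX-2. The groups were apart by more than the spread of either, with a log2 fold change of -0.54 (SE 0.068, adjusted p = 0.00114). ENO2 had a log2 fold change of -0.48 (SE 0.076, adjusted p = 0.00253) and PGAM1 one of -0.19 (SE 0.056, adjusted p = 0.0311). PGAM1 lost its call when any of EV-XP-NID1-LX-2 replicate 3 and EV-XP-LX-2 replicates 1, 2 and 3 was left out, with a largest adjusted p = 0.108. GAPDH, ENO1 and PKM were not called, at -0.12, 0.11 and 0.03.

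At the fate of pyruvate 3 of 6 members fell, LDHA, SLC16A3 and PDK1, and 3 were not called. LDHA had 478, 481 and 483 TPM in EV-XP-NID1-LX-2, against 805, 744 and 832 TPM in EV-XP-LX-2. The EV-XP-NID1-LX-2 libraries lay close together and all below the others, and the log2 fold change was -0.72 (SE 0.051, adjusted p = 0.000234). SLC16A3 had 63.9, 48.7 and 65.9 TPM in EV-XP-NID1-LX-2, against 112, 103 and 116 TPM in EV-XP-LX-2, and a log2 fold change of -0.89 (SE 0.11, adjusted p = 0.00124). PDK1 had a log2 fold change of -0.37 (SE 0.10, adjusted p = 0.0213). LDHB, SLC16A1 and PDK3 were not called, at 0.03, 0.10 and -0.09.

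In the pentose phosphate pathway the members moved apart. H6PD had 8.73, 7.11 and 8.11 TPM in EV-XP-NID1-LX-2, against 13.4, 13.4 and 13.6 TPM in EV-XP-LX-2, all lower, with a log2 fold change of -0.69 (SE 0.087, adjusted p = 0.00117). PGLS had a log2 fold change of -0.30 (SE 0.078, adjusted p = 0.0181), while PGD rose by a log2 fold change of 0.34 (SE 0.049, adjusted p = 0.00204). TALDO1 and TKT were not called, at -0.17 and -0.09. The log2 fold change of all genes fell with transcript GC content (Spearman -0.227 across genes), and with that trend removed, an alternative added after the data were seen, 7 members were called higher and 12 lower. These counts, and those with a library left out, are not set against all genes called in the same fit. Without EV-XP-NID1-LX-2 replicate 2, 5 members were called higher, and without EV-XP-LX-2 replicate 1 PFKP, PDK1 and PGLS lost their calls, PFKP and PDK1 also without EV-XP-LX-2 replicate 3, and PDK1 also without EV-XP-NID1-LX-2 replicate 3.

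LV5-NID1 was compared with LV5 to see how SW480 cells that overexpress NID1 respond when vesicle release is inhibited. TXNIP was higher in LV5-NID1, with smaller rises of PFKFB4, HK2, H6PD and SLC16A1. Both glucose carriers, the transketolase and transaldolase of the pentose phosphate pathway, TIGAR, PFKP, ALDOC, PKM, HK1 and TPI1 were lower. Of the 33 members 5 rose, 10 fell and 18 were not called, against 7.27% called higher and 9.32% called lower among all 15508 genes tested (16.6% in either direction). Past a log2 fold change of 1, TXNIP rose and SLC2A3 fell, against 0.142% of all genes higher and 1.28% lower past that size. SLC2A3 was tested only through its values in LV5, and the size of its fall depended on the pseudocount. The members' median log2 fold change was -0.17, against 0.006 for all genes. Groups did not overlap for 24 members, against 43.3% of all genes. The members held 1.46% to 1.52% of total TPM in LV5-NID1 and 1.61% to 1.64% in LV5. Mitochondrially encoded genes held 12.9% to 13.2% of TPM in LV5-NID1 and 13.6% to 15.4% in LV5, and without them H6PD lost its call.

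Every uptake gene was called, in both directions. TXNIP had 46.0, 46.9 and 49.6 TPM in LV5-NID1, against 16.1, 17.1 and 16.9 TPM in LV5. Every LV5-NID1 library was far above every LV5 library, and the log2 fold change was 1.45 (SE 0.058, adjusted p = 0.000267). SLC2A3 had 0.230, 0.250 and 0.430 TPM in LV5-NID1, against 2.04, 1.87 and 2.50 TPM in LV5. It met the filter of 1 or more in 3 libraries only through LV5, and such a gene can only come out lower in LV5-NID1. It was low in both groups, all 3 LV5-NID1 libraries lay below 1 TPM, and the log2 fold change of -1.27 (SE 0.13, adjusted p = 0.00353) understates the ratio of means of 0.142: it was -2.50 with a pseudocount of 0.1 and -0.43 with one of 5. SLC2A1 had 39.6, 35.8 and 35.4 TPM in LV5-NID1, against 56.1, 54.9 and 54.2 TPM in LV5, without overlap, and fell, with a log2 fold change of -0.57 (SE 0.061, adjusted p = 0.00431). HK2 rose by a log2 fold change of 0.42 (SE 0.078, adjusted p = 0.0202) and HK1 had a log2 fold change of -0.31 (SE 0.058, adjusted p = 0.0214). Both lost their calls when LV5-NID1 replicate 1 or 2 or LV5 replicate 1, 2 or 3 was left out, with a largest limma adjusted p = 0.0822 for HK2 and 0.09 for HK1 over the alternatives.

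In upper glycolysis PFKP, ALDOC and TPI1 fell, with log2 fold changes of -0.47 ± 0.063, -0.47 ± 0.082 and -0.23 ± 0.048 (SE). PFKP kept its call, whereas TPI1 lost it when LV5-NID1 replicate 1 or 2 or LV5 replicate 1, 2 or 3 was left out and ALDOC when LV5-NID1 replicate 2 or LV5 replicate 1 or 3 was, with a largest limma adjusted p = 0.0725 for ALDOC over the alternatives and 0.399 for TPI1, with the GC trend removed. PFKL and ALDOA were not called in the main fit (limma adjusted p = 0.182 and 0.0511). PFKL was called in 1 of 16 alternatives, that without LV5-NID1 replicate 3. ALDOA was called in 7 of 16, among them median-ratio scaling with all libraries kept. PFKL had 46.0, 41.9 and 17.1 TPM in LV5-NID1, against 56.7, 58.8 and 52.3 TPM in LV5. ALDOA had 655, 606 and 393 TPM in LV5-NID1, against 904, 861 and 886 TPM in LV5. In both, replicate 3 was the low LV5-NID1 library. Without it PFKL had a log2 fold change of -0.34 (limma adjusted p = 0.024) and ALDOA one of -0.49 (adjusted p = 0.00246), against -0.78 and -0.71 with it. GPI and PFKM had log2 fold changes of -0.10 and -0.01.

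Of the fructose bisphosphate regulators, TIGAR had 8.80, 11.8 and 9.23 TPM in LV5-NID1, against 15.6, 15.9 and 16.5 TPM in LV5. The LV5-NID1 libraries were all lower, with a log2 fold change of -0.64 (SE 0.11, adjusted p = 0.0174). Leaving out LV5 replicate 1, 2 or 3 ended the call (largest limma adjusted p = 0.0697). PFKFB4 averaged 14.5 ± 0.442 TPM in LV5-NID1 and 10.1 ± 0.425 TPM in LV5 (SD, n = 3) and rose by a log2 fold change of 0.48 (SE 0.064, adjusted p = 0.00821). PFKFB2 and PFKFB3 were not called, at -0.32 and -0.01. In lower glycolysis 1 of 6 members was called: PKM averaged 767 ± 9.80 TPM in LV5-NID1 and 982 ± 13.5 TPM in LV5, a log2 fold change of -0.36 (SE 0.038, adjusted p = 0.00431). GAPDH, PGK1, PGAM1, ENO1 and ENO2 had log2 fold changes between -0.18 for PGAM1 and 0.18 for ENO1.

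At the fate of pyruvate SLC16A1 rose by a log2 fold change of 0.26 (SE 0.055, adjusted p = 0.0288), and the other 5 members were not called. SLC16A1 lost its call without LV5-NID1 replicate 2 or LV5 replicate 1, 2 or 3 (largest limma adjusted p = 0.105). LDHA and LDHB had log2 fold changes of -0.01 ± 0.052 and -0.02 ± 0.066 (SE). SLC16A3 had 103, 99.0 and 21.7 TPM in LV5-NID1, against 145, 141 and 127 TPM in LV5. All 3 LV5-NID1 libraries were below the lowest LV5 library, replicate 3 far below the other 2, and without replicate 3 the log2 fold change was -0.44 (limma adjusted p = 0.0091) in place of -1.16 with an adjusted p = 0.215. PDK1 and PDK3 had log2 fold changes of 0.36 and 0.08.

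In the pentose phosphate pathway both non-oxidative enzymes fell. TKT had 453, 439 and 307 TPM in LV5-NID1, against 638, 624 and 594 TPM in LV5, with replicate 3 lowest and no overlap, a log2 fold change of -0.65 (SE 0.15, adjusted p = 0.0376). Without replicate 3 it was -0.47 (limma adjusted p = 0.00223). TALDO1 had 196, 201 and 181 TPM in LV5-NID1, against 254, 266 and 287 TPM in LV5, and fell, with a log2 fold change of -0.48 (SE 0.067, adjusted p = 0.00929). H6PD rose by a log2 fold change of 0.36 (SE 0.090, adjusted p = 0.0451), and PGLS and PGD were not called, at -0.23 and 0.04. The counts of called members changed when any single library was left out. Each such fit has 2 libraries against 3, and the part of that in the lost calls was not tested. These counts are not set against all genes called in the same fit. Leaving out LV5-NID1 replicate 2, or LV5 replicate 1, 2 or 3, left 2 members higher and 5 or 6 lower, leaving out LV5-NID1 replicate 1 left 3 higher and 9 lower, and leaving out LV5-NID1 replicate 3 gave 6 higher and 15 lower. TXNIP, SLC2A1, SLC2A3, PFKP, PFKFB4, PKM and TALDO1 kept their calls and directions under every alternative in which they were tested, other than the requirement that the log2 fold change be 1 or more in size. TKT lost its call without LV5-NID1 replicate 2 or LV5 replicate 1, 2 or 3 and H6PD without those or LV5-NID1 replicate 1, with a largest limma adjusted p = 0.119 for TKT and 0.145 for H6PD.

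**Figure D4:**
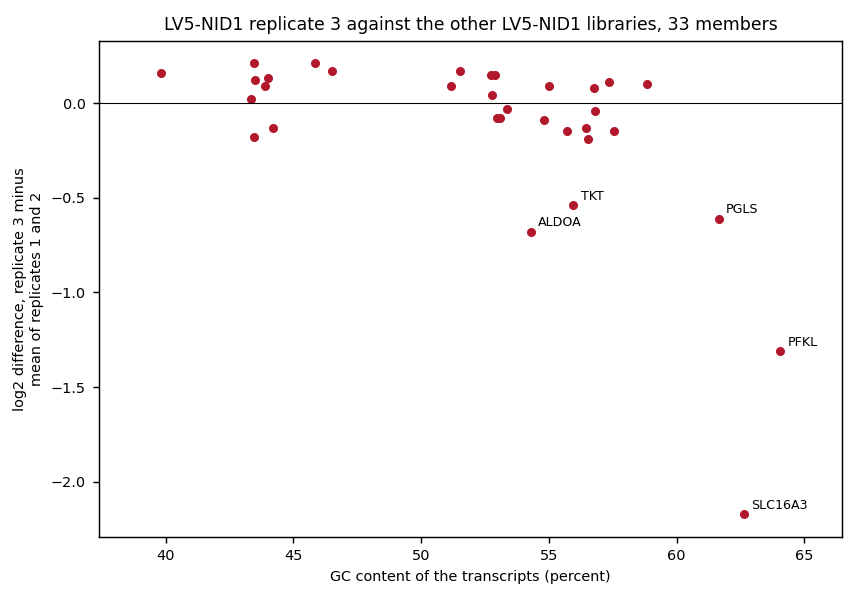
Log2 difference of (TPM + 1) between LV5-NID1 replicate 3 and the mean of LV5-NID1 replicates 1 and 2 on the vertical axis, against the GC content of the transcripts in percent, for the 33 members. SLC16A3 (-2.17), PFKL (-1.31), ALDOA (-0.68), PGLS (-0.61) and TKT (-0.54) lie below the rest, which are within 0.21 of 0.

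GC content is that of the longest annotated transcript of each gene, which need not be the one expressed. Of these 5 low members, PFKL, SLC16A3 and PGLS have transcripts with 64.1%, 62.7% and 61.7% GC, the highest of the 33. TKT and ALDOA have 56.0% and 54.3% GC, and GAPDH, PFKP and TPI1, with 58.8%, 57.5% and 57.4%, were not low in that library, at 0.10, -0.15 and 0.11 on the log2 scale. Over all genes, the deviation of that library from its group had a rank correlation of -0.546 with GC content across 14506 genes, and the log2 fold change of LV5-NID1 over LV5 one of -0.364. The part of GC content in the members' results beyond the removal of the trend was not tested.

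The balance between isozymes was read as the share of one gene within its family in each library, which does not change when a library is multiplied by 1 factor. In SW480-LM3 and SW480-P the signal is not per length, so there the difference between groups is read and not the share itself. In SW480-LM3 the balance moved towards HK2, PFKP, LDHA, SLC16A3 and PDK1, and in LX-2 the LDHA and SLC16A3 shares were lower with NID1 vesicles. The exact permutation test of 3 against 3 cannot go below p = 0.1, so none of the 27 comparisons of a share could pass 0.05, adjusted or not, and groups that do not overlap give that smallest p.

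The SLC16A3 share of SLC16A1 plus SLC16A3 was 68.8%, 72.4% and 71.8% of signal in SW480-LM3, against 28.2%, 26.7% and 24.4% in SW480-P, a difference of 44.6 percentage points. It was 42.2%, 36.0% and 42.0% of TPM in EV-XP-NID1-LX-2, against 57.7%, 56.1% and 57.9% in EV-XP-LX-2, a difference of -17.2 points. It was 53.1%, 51.5% and 17.8% in LV5-NID1, against 65.3%, 63.5% and 61.7% in LV5, where the low value is replicate 3. In each comparison the groups did not overlap (exact permutation p = 0.1, 2-sided), and the direction in SW480-LM3 was opposite to that of the other comparisons. The transcripts of SLC16A3 have 62.7% GC and those of SLC16A1 43.5%. No share was recomputed with the GC trend removed, so the part of GC content in the shares was not tested. The LDHA share of LDHA plus LDHB was 80.6%, 81.5% and 81.6% of signal in SW480-LM3, against 57.7%, 57.5% and 57.5% in SW480-P. It was 42.7%, 38.0% and 41.3% of TPM in EV-XP-NID1-LX-2, against 53.9%, 51.7% and 55.4% in EV-XP-LX-2. Neither pair overlapped (exact permutation p = 0.1 each), whereas the share was 48.7%, 47.9% and 47.6% in LV5-NID1 and 48.4%, 48.0% and 47.4% in LV5, with overlap (exact permutation p = 0.8).

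The HK2 share of HK1 plus HK2 was higher in the first-named group of all 3 comparisons, by 27.4 percentage points in SW480-LM3, 4.17 in EV-XP-NID1-LX-2 and 10.9 in LV5-NID1 (exact permutation p = 0.1 each, n = 3 against 3). In TPM it was 33.2%, 32.1% and 35.5% in LV5-NID1, against 22.4%, 23.7% and 22.0% in LV5. The SLC2A3 share of both carriers was lower by 29.2 points in SW480-LM3 although SLC2A3 itself rose, and SLC2A1 rose by more. It was 38.0% ± 1.95 of TPM in EV-XP-NID1-LX-2 and 32.3% ± 1.88 in EV-XP-LX-2, and 0.824% ± 0.331 in LV5-NID1 and 3.74% ± 0.590 in LV5 (mean ± SD, n = 3). The PFKP share of the phosphofructokinase genes was higher by 17.8 points in SW480-LM3 and lower by 4.62 points in LV5-NID1, and in LX-2 the groups overlapped. The ENO2 share of the enolases was 4.89% ± 0.257 in SW480-LM3 and 0.889% ± 0.0811 in SW480-P, and 8.99% ± 0.531 in EV-XP-NID1-LX-2 and 13.0% ± 0.265 in EV-XP-LX-2. The ALDOC share of the aldolases was 1.08% ± 0.0941 in EV-XP-NID1-LX-2 and 3.32% ± 0.404 in EV-XP-LX-2. The PDK1 share of PDK1 plus PDK3 was higher by 18.9 points in SW480-LM3, lower by 5.12 points in EV-XP-NID1-LX-2 and higher by 3.31 points in LV5-NID1, without overlap in any of the 3. Among the PFKFB genes, PFKFB3 gained 15.3 points in SW480-LM3 and PFKFB2 lost share. The PFKFB4 share, added after the values were seen and given with no test, was 46.0%, 44.4% and 47.3% in SW480-LM3, against 7.16%, 6.87% and 5.97% in SW480-P, a larger difference of 39.3 points.

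**Figure D5:**
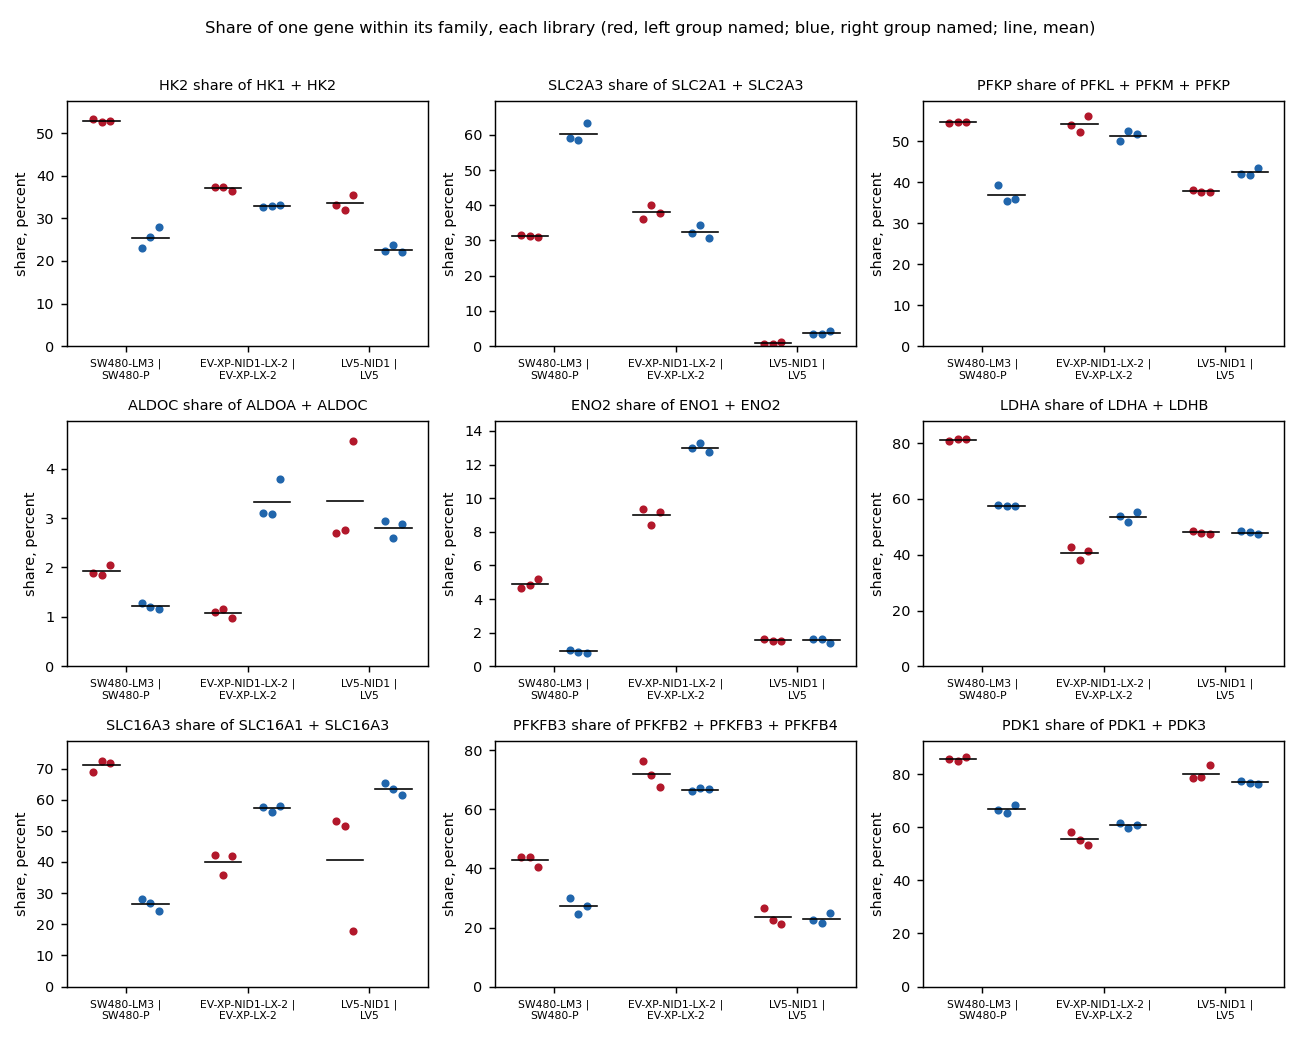
Share, in percent, of one gene within its family in each library, 1 panel per family; within each pair of groups the red points on the left are the first-named group and the blue points on the right the second, with a line at the mean. The SLC16A3 share is higher in SW480-LM3 than in SW480-P and lower in EV-XP-NID1-LX-2 and LV5-NID1 than in EV-XP-LX-2 and LV5, and the LV5-NID1 value of 17.8 is replicate 3.

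Across the 3 comparisons, which share no libraries, 6 members (18.2%) were called in every one, against 7.32% of 11564 genes tested in all 3. They were SLC2A3, HK1, TXNIP, PFKP, ALDOC and H6PD, of which HK1, ALDOC and H6PD lost their LV5-NID1 calls when single libraries were left out. SLC2A3 passed the filter of the LV5-NID1 comparison only through LV5. TXNIP was the 1 member called higher in all 3, as were 0.484% of all genes. Of the 23 members that rose in SW480-LM3, 11 (47.8%) fell in EV-XP-NID1-LX-2, against 30.1% of all genes that rose in SW480-LM3. LDHA, PGK1, ALDOC, SLC16A3 and PDK1 were among them. Of the same 23 members 7 (30.4%) fell in LV5-NID1, SLC2A1, SLC2A3 and PKM among them, against 8.13% of all genes that rose in SW480-LM3. HK2, TXNIP, PFKFB4 and H6PD rose in both SW480-LM3 and LV5-NID1, 17.4% of those 23 against 6.78% of all genes that rose in SW480-LM3. TIGAR, TALDO1 and TKT fell in both, 3 of the 10 members that fell in SW480-LM3 against 12.5% of all genes that fell in SW480-LM3. Of all 33 members, 30.3% fell and 15.2% rose in LV5-NID1, and 39.4% fell in EV-XP-NID1-LX-2. The LV5-NID1 shares among members that rose or fell in SW480-LM3 were thus near those of the members as a whole. HK2, H6PD, TIGAR and TKT lost their LV5-NID1 calls when single libraries were left out, as did TPI1, which is among the 7 above. Over all genes the log2 fold change rose with transcript GC content in SW480-LM3 (Spearman 0.281). It fell with GC content in EV-XP-NID1-LX-2 (-0.227) and LV5-NID1 (-0.364). The shares of all genes were not matched for GC content, so its part in these overlaps was not tested. No model across tables was fitted, since they differ in unit, so differences between the comparisons were not tested.

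Other lists were counted beside the members, and their counts are read against the 43.9% of all genes called higher and 43.9% called lower in SW480-LM3, the 17.8% and 24.6% in EV-XP-NID1-LX-2 and the 7.27% and 9.32% in LV5-NID1. Of the targets of HIF outside glycolysis, 12 of 20 rose (60%) and 6 fell (30%) in SW480-LM3, and the share called in either direction, 90%, was close to the 87.8% of all genes. CA9, a carbonic anhydrase, had 208, 239 and 234 signal in SW480-LM3, against 1.07, 1.81 and 0.846 in SW480-P, and BNIP3, a mitophagy receptor, had 1.11, 0.644 and 0.380 signal in SW480-LM3, against 54.5, 63.1 and 59.4 in SW480-P. The 2 targets moved in opposite directions, with log2 fold changes of 6.69 and -5.15. In EV-XP-NID1-LX-2, 13 of 17 tested targets fell (76.5%, against 24.6% of all genes) and 1 rose, with a median log2 fold change of -0.42, against -0.05 for all genes. NDRG1, a stress-responsive gene, had 26.3, 24.1 and 27.8 TPM in EV-XP-NID1-LX-2, against 58.6, 49.9 and 64.7 TPM in EV-XP-LX-2, and DDIT4, an inhibitor of mTOR signalling, had 46.9, 38.1 and 46.4 TPM in EV-XP-NID1-LX-2, against 88.4, 79.8 and 89.8 TPM in EV-XP-LX-2. Both fell without overlap, with log2 fold changes of -1.11 and -0.96. In LV5-NID1, 4 of 17 rose (23.5%, against 7.27%) and 2 fell (11.8%, against 9.32%). ADM, which encodes adrenomedullin, had a log2 fold change of -1.20 there, and MXI1, an antagonist of MYC, one of 0.78.

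Among 14 regulators of these genes, 8 rose and 4 fell in SW480-LM3, 3 of 12 tested rose and 4 fell in EV-XP-NID1-LX-2, and 1 of 14 fell in LV5-NID1. The shares called were 85.7%, 58.3% and 7.14%, against 87.8%, 42.3% and 16.6% of all genes. EPAS1, which encodes HIF2A, had 0.349, 0.878 and 0.813 signal in SW480-LM3, against 69.3, 70.5 and 72.7 in SW480-P, and HIF1A had 97.3, 99.8 and 95.4 signal in SW480-LM3, against 160.3, 168 and 175 in SW480-P. Both fell, with log2 fold changes of -5.43 and -0.78. EPAS1 passed the filter only through SW480-P, and HIF1A was named after its values were seen. PPARGC1A, a coactivator of mitochondrial genes, had a log2 fold change of -2.85 in SW480-LM3. EPAS1, HIF1A and PPARGC1A are among the 4 regulators that fell there. The 8 that rose include MLXIPL, with the largest log2 fold change of 2.78. KLF10, a repressor induced by TGF-beta, had 258, 245 and 251 TPM in EV-XP-NID1-LX-2, against 111, 121 and 112 TPM in EV-XP-LX-2, all higher, with a log2 fold change of 1.13.

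Of the other glucose carriers and first-step enzymes, 4 of 9 rose and 3 fell in SW480-LM3, 2 of 8 rose and 2 fell in EV-XP-NID1-LX-2, and 1 of 8 rose and 2 fell in LV5-NID1. The shares called were 77.8%, 50% and 37.5%, against 87.8%, 42.3% and 16.6% of all genes. SLC2A8 and SLC2A13, carriers of internal membranes and of inositol, had log2 fold changes of -2.76 and -2.27 in SW480-LM3. ARRDC3 and ARRDC4, arrestin-like relatives of TXNIP, rose beside it in EV-XP-NID1-LX-2, by 0.66 and 0.43. HKDC1, a hexokinase relative, had 45.8, 48.6 and 45.1 TPM in LV5-NID1, against 80.9, 79.9 and 77.4 TPM in LV5, and fell, with a log2 fold change of -0.76. Of the other glycolytic isozymes, 2 of 3 rose and 1 fell in SW480-LM3, 0 of 3 were called by limma in EV-XP-NID1-LX-2 (1 of 3, ENO3, had an unadjusted p = 0.047) and 1 of 4 (25%) fell in LV5-NID1. ENO3, the muscle-type enolase, had a log2 fold change of 1.18 in SW480-LM3 and -0.31 in LV5-NID1, and MINPP1, an inositol phosphate phosphatase, one of 1.33 in SW480-LM3.

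For pyruvate entry into mitochondria, 6 of 14 genes rose and 8 fell in SW480-LM3, 4 of 13 rose and 3 fell in EV-XP-NID1-LX-2, and 1 of 14 rose and 4 fell in LV5-NID1. The share that rose in SW480-LM3, 42.9%, was near the 43.9% of all genes, and the shares called in the other comparisons were 53.8% and 35.7%, against 42.3% and 16.6% of all genes. SLC16A7, the pyruvate carrier MCT2, passed the filter only through SW480-P, and had 0.116, 0 and 0 signal in SW480-LM3, against 13.5, 16.7 and 19.5 in SW480-P. PDPR, a regulator of pyruvate dehydrogenase phosphatase, rose by a log2 fold change of 2.14 there. PDP2, a catalytic subunit of that phosphatase, rose by a log2 fold change of 0.54 in EV-XP-NID1-LX-2, and PDHB, a subunit of pyruvate dehydrogenase, had a log2 fold change of -0.47. PDK4, a starvation-induced kinase, had 19.2, 19.4 and 20.4 TPM in LV5-NID1, against 53.3, 55.9 and 51.4 TPM in LV5. The groups did not overlap and PDK4 fell, with a log2 fold change of -1.40, as did MPC2, a subunit of the pyruvate carrier, with -0.62.

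In gluconeogenesis, glycogen and hexosamine metabolism, 11 of 18 genes rose and 7 fell in SW480-LM3, 6 of 18 rose and 4 fell in EV-XP-NID1-LX-2, and 2 of 17 fell in LV5-NID1. The share that rose in SW480-LM3 was 61.1%, against 43.9% of all genes, and the share that fell in LV5-NID1, 11.8%, was near the 9.32% of all genes. GFPT2, a hexosamine pathway enzyme, had a log2 fold change of -3.97 and PYGB, the brain-type glycogen phosphorylase, one of 2.21 in SW480-LM3. SLC37A4, the glucose phosphate carrier of the endoplasmic reticulum that supplies H6PD, had 14.2, 10.6 and 16.9 TPM in EV-XP-NID1-LX-2, against 36.8, 36.8 and 42.6 TPM in EV-XP-LX-2. It fell, with a log2 fold change of -1.43, while GYG1, the glycogen primer, rose by a log2 fold change of 0.77. PC, pyruvate carboxylase, had a log2 fold change of -1.19 and UGP2, which makes UDP-glucose, one of -0.35 in LV5-NID1. Of the other pentose phosphate genes, 3 of 7 rose and 4 fell in SW480-LM3, 2 of 6 rose and 2 fell in EV-XP-NID1-LX-2, and 2 of 7 fell in LV5-NID1, or 100%, 66.7% and 28.6% called, against 87.8%, 42.3% and 16.6% of all genes. RBKS, ribokinase, and RPE, ribulose phosphate epimerase, had log2 fold changes of -1.75 and -1.32 in SW480-LM3. RPIA, ribose phosphate isomerase, rose by a log2 fold change of 0.55 and SHPK, a sedoheptulose kinase, had a log2 fold change of -0.66 in EV-XP-NID1-LX-2. PRPS1, which makes the activated ribose for nucleotides, had a log2 fold change of -0.23 in LV5-NID1.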

How the data were processed

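Poly(A) RNA of 18 cell line libraries was sequenced, 3 per group. Per the submitters' processing notes HISAT2 2.1.0 and Bowtie2 2.3.5 were used; the sources used here do not name the counting step, the genome build or the annotation. The deposited SW480-LM3 and SW480-P table holds a signal that behaves as reads divided by 1 factor per library, since 100% of its values gave whole reads within 0.05 read, so reads were recovered and also tested as counts. The deposited tables of the other 4 groups hold TPM, each library summing to 1000000 within rounding. No further value columns were present (0 without a sample).

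Members were matched by symbol, older symbol or Ensembl ID: TIGAR stands as C12orf5 in the signal table and PGLS under its Ensembl ID in the TPM tables. The members, the other lists and the rule for naming genes were chosen with earlier results of these data known. The rule describes by library the called members whose log2 fold change is 1 or more in size, or the 6 with the largest where fewer than 6 reach it, and up to 2 called genes of each other list with a mean of at least 5 in the higher group. 2 genes that it takes are not reported here, and are counted in their lists.

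Each comparison was fitted alone with limma 3.58.1 (R 4.3.3), with a variance trend and no block, on log2(value + 1). Genes needed a value of 1 in 3 or more libraries, with Benjamini-Hochberg adjustment over all genes tested and calls at 0.05. The fit was tested on simulated data. Fold changes on this scale understate those of low genes. Isozyme shares were compared with 2-sided exact permutation tests. Alternatives were quantile, median-ratio and library-total scaling, rescaling without mitochondrially encoded genes, no variance trend, a replicate block, pseudocounts of 0.1 and 5, all genes kept or those averaging 5 or more, calls limited to log2 fold changes of 1 or more in size, each library left out, edgeR 4.0.16 and DESeq2 1.42.0 on recovered reads, and, added after the data were seen, removal of each library's trend with transcript GC content (GENCODE 29 transcripts). Leaving out a library leaves 2 against 3, and limma then pools the spread over both groups. The GC content of a gene is that of its longest GENCODE 29 transcript. Promoters come from RefSeq on GRCh38.p14.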

Additional observations from a re-analysis of the deposited data

How the results depend on the processing

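Direction and call were kept by all 33 members of the SW480-LM3 comparison under median-ratio scaling, both pseudocounts, both low filters, edgeR and DESeq2. Counts of called members with a library left out, a block or the GC trend removed are not set against all genes here. Limiting limma calls to log2 fold changes of 1 or more in size left 3 members lower in SW480-LM3, 0 higher (3 at any size) and 1 lower in EV-XP-NID1-LX-2, and 1 higher and 1 lower in LV5-NID1. With the GC trend removed, an alternative added after the data were seen, 7 members were higher in EV-XP-NID1-LX-2. In SW480-LM3 this turned TPI1 to -0.087 and PGLS to -0.234 (log2 fold changes, as in all that follows), quantile normalization turned PGAM1 to 0.676 and ENO1 to 0.395, and library-total scaling turned PGAM1 to 0.216. In EV-XP-NID1-LX-2 the members that changed sign were not called. They were SLC2A1 (-0.061 quantile, -0.036 without mitochondrially encoded genes), PFKM (0.042 median-ratio, 0.054 GC trend removed), TPI1 (-0.018 without mitochondrially encoded genes), PFKFB4 (0.072 quantile, 0.001 median-ratio, 0.089 GC trend removed), GAPDH (0.137 quantile, 0.048 GC trend removed), PKM (-0.084 quantile, -0.003 without mitochondrially encoded genes), LDHB (-0.083 quantile, -0.002 without mitochondrially encoded genes), PDK3 (0.041 quantile) and TKT (0.044 GC trend removed). In LV5-NID1, likewise among members not called, quantile normalization gave 0.079 for PFKM, 0.044 for PFKFB3, -0.013 for ENO1 and 0.005 for LDHA, and removal of the GC trend gave 0.063 for PFKFB3, -0.011 for PGK1 and 0.053 for PGLS. Quantile normalization also turned the ALDOC share difference of SW480-LM3 to -0.165 points and the ENO2 share difference of LV5-NID1 to 0.267 points; the cause was not tested. Leaving out 1 library at a time gave 3 to 5 members higher in EV-XP-NID1-LX-2, and 2 to 6 higher and 5 to 15 lower in LV5-NID1. It moved members not called in EV-XP-NID1-LX-2 from -0.057 to 0.099 for SLC2A1, -0.097 to 0.078 for PFKM, -0.019 to 0.045 for TPI1, -0.193 to 0.023 for PFKFB4, -0.001 to 0.10 for PKM and -0.046 to 0.099 for LDHB. In LV5-NID1 the same ranges were -0.069 to 0.028 for PFKM, -0.098 to 0.044 for PFKFB3, -0.054 to 0.02 for LDHA, -0.074 to 0.031 for LDHB and -0.011 to 0.072 for PGD. Share differences in LV5-NID1 ranged from -0.0724 to 0.856 points for ALDOC, -0.0952 to 0.0314 for ENO2, -0.196 to 0.36 for LDHA and -1.17 to 1.6 for PFKFB3. Replicate numbers did not pair the libraries (correlation of deviations of same-numbered libraries -0.047 to 0.063 across genes), and with a replicate block 2 members were higher and 6 lower in LV5-NID1, while the block removed 1 call (PGAM1) in EV-XP-NID1-LX-2 and none of the 33 in SW480-LM3. Depth is unknown for the TPM tables, so members near 1 TPM such as SLC2A3 in LV5-NID1 carry an unknown counting error.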

Other observations

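TXNIP and its relative ARRDC4 are known targets of the glucose sensor MondoA, encoded by MLXIP, and of ChREBP, encoded by MLXIPL, which both pair with MLX. These genes were looked at after their values were seen, and the values are given with no test beyond the limma fits over all genes. In SW480-LM3 against SW480-P, MLXIPL had 13.5, 13.5 and 12.4 signal in SW480-LM3, against 0.997, 0.990 and 1.20 in SW480-P. MLXIP had 69.7, 79.6 and 73.8 signal in SW480-LM3, against 19.1, 17.1 and 18.7 in SW480-P, and MLX had 43.2, 45.0 and 44.6 signal in SW480-LM3, against 83.3, 81.3 and 82.6 in SW480-P. The first 2 rose, by log2 fold changes of 2.78 and 1.97, and MLX fell, with one of -0.88. ARRDC4 had a log2 fold change of 0.13 (SE 0.10, adjusted p = 0.255) and was not called there, while ARRDC3 rose by 0.62.

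In EV-XP-NID1-LX-2, where TXNIP, ARRDC3 and ARRDC4 rose together, MLXIP and MLX had log2 fold changes of 0.10 (SE 0.067, adjusted p = 0.244) and -0.08 (SE 0.050, adjusted p = 0.244) and were not called. In LV5-NID1, ARRDC4 had 2.74, 2.72 and 3.26 TPM, against 1.43, 1.44 and 1.72 TPM in LV5. It rose without overlap, with a log2 fold change of 0.63 (SE 0.11, adjusted p = 0.0154), and ARRDC3, MLXIP and MLX were not called, at -0.06 for ARRDC3, -0.02 for MLXIP and within 0.01 of 0 for MLX. MLXIPL had 38.0, 34.4 and 12.3 TPM in LV5-NID1, against 18.8, 23.0 and 20.8 TPM in LV5, so replicate 3 was the low LV5-NID1 library and the other 2 lay above every LV5 library.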
